A study of Homo sapiens with 4 samples.

Results

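Krueppel-like factors are a family of transcription factors, and 8 of them were followed here in U937 cells: KLF2, KLF3, KLF4, KLF6, KLF9, KLF10, KLF11 and KLF13. They are 8 of 19775 genes on the array and are read by 25 of its 54675 probe sets, taken as every probe set whose annotation names 1 of these symbols alone. The family was singled out because KLF6 and KLF4 were higher with ultrasound. Differences that involve ultrasound are therefore given as a description, with no test.

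U937 is an established human cell line from a lymphoma whose cells resemble immature monocytes. RNA was measured on 4 Affymetrix Human Genome U133 Plus 2.0 arrays, 1 for each group. In the combination group the cells were given Sonazoid at 0.05% together with ultrasound of 0.3 W/cm2 for 1 min. The ultrasound only group had the same ultrasound without Sonazoid, the Sonazoid only group had 0.05% Sonazoid without ultrasound, and control cells had neither. Sonazoid is a contrast agent of gas-filled microbubbles that oscillate in an ultrasound field. Treated cells were incubated for 3 h at the end of treatment, and no such incubation is stated for control cells. Each group was 1 array, so no difference below has a replicate check and none carries a p-value. In a bulk sample, a transcript made by fewer cells and less transcript per cell cannot be told apart.

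Members of the family bind GC-rich and CACCC-type DNA through C2H2 zinc fingers at the C-terminal end, and differ in the N-terminal part, which recruits co-activators or co-repressors. Several, among them KLF2, KLF4, KLF6 and KLF10, are immediate early or rapidly inducible genes, whose transcripts appear soon after a stimulus and are short-lived. In monocytes and macrophages KLF4 is known for promoting monocyte differentiation, KLF2 for restraining inflammatory gene expression, and KLF6 for promoting it.

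The sequence before the gene start is shown for 4 members: KLF6, KLF4 and KLF2, which had the largest differences with ultrasound by their brightest probe sets, and KLF13, whose bright probe sets differed little. For KLF2 the difference rests on 1 of its 2 probe sets, as given below. Each window is the 250 bases upstream of the start in RefSeq, read 5′ to 3′ on the gene's strand from assembly GRCh38.p14. KLF6 lies at chr10:3785210-3785459 on the minus strand, KLF4 at chr9:107489770-107490019 on the minus strand, KLF2 at chr19:16324576-16324825 on the plus strand and KLF13 at chr15:31326585-31326834 on the plus strand. Capitals mark the letters of a GC box, a CACCC box or a MEF2 site on either strand.
KLF6: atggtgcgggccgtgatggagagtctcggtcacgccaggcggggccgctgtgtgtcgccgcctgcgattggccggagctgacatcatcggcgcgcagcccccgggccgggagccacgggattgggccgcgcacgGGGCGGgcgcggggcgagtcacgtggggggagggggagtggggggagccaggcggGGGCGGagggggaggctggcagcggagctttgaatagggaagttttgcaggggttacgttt
KLF4: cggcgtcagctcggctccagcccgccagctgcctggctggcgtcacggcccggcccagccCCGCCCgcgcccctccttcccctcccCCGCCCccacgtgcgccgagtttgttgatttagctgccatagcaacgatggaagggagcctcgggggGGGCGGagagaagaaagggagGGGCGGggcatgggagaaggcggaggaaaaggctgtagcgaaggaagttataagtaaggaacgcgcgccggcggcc
KLF2: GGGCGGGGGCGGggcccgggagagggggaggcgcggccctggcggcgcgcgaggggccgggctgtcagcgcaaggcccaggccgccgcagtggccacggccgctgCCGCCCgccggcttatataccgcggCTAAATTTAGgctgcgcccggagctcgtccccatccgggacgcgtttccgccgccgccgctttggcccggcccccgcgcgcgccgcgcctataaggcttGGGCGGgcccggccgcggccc
KLF13: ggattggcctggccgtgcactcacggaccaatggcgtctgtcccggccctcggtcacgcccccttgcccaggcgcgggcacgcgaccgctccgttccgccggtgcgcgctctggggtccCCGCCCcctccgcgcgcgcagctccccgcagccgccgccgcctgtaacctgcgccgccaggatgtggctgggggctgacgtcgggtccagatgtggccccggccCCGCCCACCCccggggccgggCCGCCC

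The GC box (GGGCGG), a binding sequence shared by SP and Krueppel-like factors, was found 2 times in the KLF6 window, 4 times each in those of KLF4 and KLF2, and 3 times in that of KLF13. Of the 35116 RefSeq windows of this length, 42.6% held it. The CACCC box (CACCC) was found 1 time, in the KLF13 window, where it shares 1 base with a GC box. It was in 54.7% of all windows. The KLF2 window held a MEF2 site, the binding sequence of the MEF2 factors through which ERK5 is known to activate KLF2, 120 to 111 bases before the start. A MEF2 site was in 2.80% of all windows.

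Other motifs were searched for on both strands and had no match in these 4 windows. They were the cAMP response element (TGACGTCA, in 1.65% of all windows), the AP-1 site (TGANTCA, 6.57%), a pair of heat shock element units (GAANNTTC, 5.78%), the TATA box (TATAAA, 10.7%), the CArG box of serum response factor (1.16%) and the NF-kB site (5.21%). Windows were matched for 6 of the 8 members. Of the other matched ones, that of KLF9 held none of the motifs. It was 32.4% G and C, where the 4 windows shown were 69.2% to 80%. The 2 windows of KLF11 held 2 and 6 GC boxes, and the latter also held 1 CACCC box and 1 cAMP response element. A match describes letters and is not evidence of a bound factor.

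**Figure D1:**
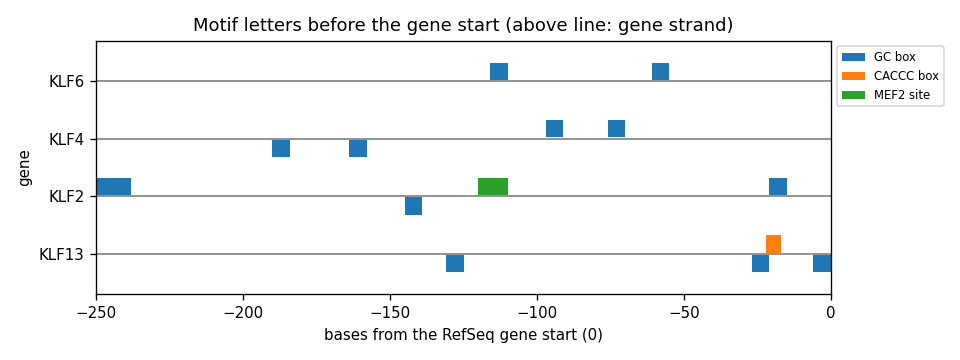
Positions of the motif letters in the 250 bases before the RefSeq start of KLF6, KLF4, KLF2 and KLF13; the x axis is the distance from the start in bases, marks above a line are on the gene's strand and marks below it on the other. GC boxes are present in all 4 windows, and the MEF2 site in the KLF2 window.

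Values are scaled intensities of a probe set, with the array's values multiplied by 1 factor to a common trimmed mean. Signals at or under 23.8, the median of all scaled values, were set to that floor before log2 was taken, and where 1 of the arrays compared lay at the floor, the difference is a bound and reads "at least". Probe set brightness depends on the probes, so values are set side by side between arrays and not between probe sets. The median deposited signal lay between 22.6 and 26.4 on the 4 arrays and the scaling factors between 0.923 and 1.07. The 3′ to 5′ signal ratio lay between 1.16 and 1.20 for ACTB and between 0.946 and 1.01 for GAPDH. Over the 8 myeloid markers analysed, such as LYZ, CTSG and AZU1, the summed signal was 25757 in the combination, 29109 with ultrasound only, 24054 with Sonazoid only and 26454 in control. MPO, a granule enzyme of myeloid cells, was above the floor on 1 of the 4 arrays, Sonazoid only, at 28.6, and SPI1 was dim, at 59.3 in the combination and 120.2 in control. The 4 T cell markers summed to between 36.7 and 97.5 and the 3 B cell markers to between 179.6 and 212. The erythroid markers summed to between 38.9 and 68.9, the 3 epithelial ones to between 47.5 and 75.3 and the fibroblast and endothelial ones, most of it PECAM1, to between 774 and 915. Among these, 2 dim transcripts differed with ultrasound by their brightest probe sets. KRT8, an epithelial keratin read by an _x_at probe set, was at 59.2 in the combination and 43.2 with ultrasound only, against 38.6 with Sonazoid only and 18.6 in control, at least 2.48-fold above control in the combination, while the epithelial marker EPCAM was under the floor on all arrays. HBB, a globin, was at 35.6 and 34.9 with ultrasound, against 53.2 with Sonazoid only and 63.4 in control. That is -0.83 (log2) between the combination and control, where other HBB probe sets went the other way, at 0.47 and 0.44. The part of KRT8 and HBB in the values below was not tested.

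Of the 5 KLF6 probe sets, the 4 above the floor on all arrays were each higher on both arrays with ultrasound. The brightest, 1555832_s_at, read 2968 in the combination and 2852 with ultrasound only, against 394 with Sonazoid only and 397 in control. Probe set 224606_at, whose name marks it as specific to the gene, read 1896 in the combination and 2160.1 with ultrasound only, against 299 with Sonazoid only and 294 in control. The arrays with ultrasound thus stood far above those without, and the 2 arrays of each kind lay close together.

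The remaining KLF6 probe sets likewise put both arrays with ultrasound above the others, with differing orders within each pair. Probe set 208961_s_at read 1097 in the combination, 1124 with ultrasound only, 105 with Sonazoid only and 155 in control. Probe set 208960_s_at read 621, 749, 85.1 and 73.5 in that order of arrays. The dim 211610_at read 43.1 in the combination and 43.7 with ultrasound only, and was under the floor on the other arrays. It passed the floor through the arrays with ultrasound alone, so it had to differ.

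In log2 terms, the combination exceeded control by 2.69 to 3.08 over the 4 KLF6 probe sets that were above the floor on all arrays, and ultrasound only exceeded control by 2.84 to 3.35. The dim probe set gave at least 0.86 and at least 0.87. The spread among probe sets was wider than the distance between the combination and ultrasound only, which was 0.06 by the brightest probe set and -0.04, -0.19 and -0.27 by the next 3. KLF6 binds GC-rich core promoter elements and is known as an early response gene of injured and activated cells.

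KLF4, a regulator of monocyte differentiation and of the pluripotent state, was higher with ultrasound by both of its probe sets. Probe set 221841_s_at read 838 in the combination and 636 with ultrasound only, against 253 with Sonazoid only and 183 in control. It was the KLF4 probe set on which all 4 arrays stood apart, each by 1.32-fold or more from the next. The combination was 4.59-fold and ultrasound only 3.48-fold above control, and Sonazoid only was 1.39-fold above it.

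The second KLF4 probe set, 220266_s_at, read 113 in the combination, 108 with ultrasound only, 28.2 with Sonazoid only and 8.16 in control, the last under the floor. It put the combination at least 4.73-fold and ultrasound only at least 4.54-fold above control. The step between the arrays with ultrasound was 1.32-fold by the first probe set and 1.04-fold by this one, so a further difference with added Sonazoid rested on 1 probe set.

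KLF2, known for keeping lymphocytes and endothelium quiescent and for restraining monocyte activation, gave probe sets that disagreed. Probe set 219371_s_at read 124 in the combination and 114 with ultrasound only, against 25.3 with Sonazoid only and 5.78 in control. That is at least 5.19-fold and at least 4.78-fold above control, with the control array under the floor. Probe set 226646_at read 7.63 in the combination, 38.7 with ultrasound only, 10.2 with Sonazoid only and 26.5 in control. It was dim throughout, and put the combination at least 0.15 (log2) below control and ultrasound only 1.46-fold above it. A direction for KLF2 therefore depends on which probe set is read; the 219371_s_at name marks probes that can match more than 1 transcript.

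KLF10, first described as a gene induced early by TGF-beta, has 1 probe set, 202393_s_at. It read 1110.3 in the combination and 1016 with ultrasound only, against 530.4 with Sonazoid only and 592 in control. Both arrays with ultrasound were above both without, by 1.72-fold at the closest pair. The combination was 1.87-fold and ultrasound only 1.72-fold above control, short of 2-fold, and the combination was 2.09-fold above Sonazoid only. KLF11, its closest relative and likewise induced by TGF-beta, was dim. Its probe set 1553137_s_at read 30.9 in the combination, 17.3 with ultrasound only, 25.0 with Sonazoid only and 29.0 in control, and its other probe set, 218486_at, was under the floor on all 4 arrays.

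**Figure D2:**
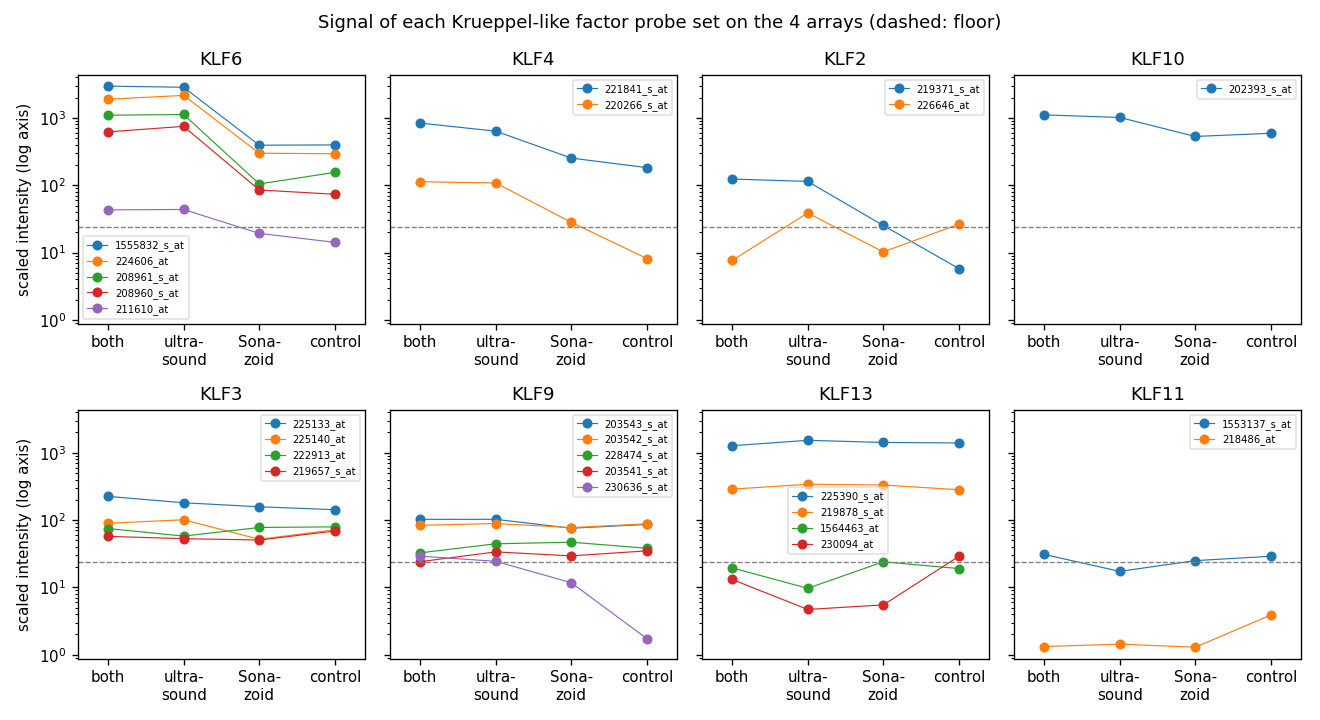
Scaled intensity (log axis) of each of the 25 probe sets of the 8 Krueppel-like factors on the array of the combination (both), ultrasound only, Sonazoid only and control; points are single arrays, thin lines join the points of 1 probe set, and the dashed line is the floor of 23.8. KLF6, KLF4 and KLF10 are higher on both arrays with ultrasound by all of their probe sets, and KLF2 by 1 of 2. The dimmest KLF6 probe set is under the floor on both arrays without ultrasound. The KLF13 probe sets above 100 stay level.

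KLF3, a repressor that recruits the co-repressor CtBP, was read by 4 probe sets that were above the floor on all arrays and went different ways. Probe set 225133_at read 225 in the combination, 181 with ultrasound only, 158 with Sonazoid only and 143 in control. Probe set 225140_at read 89.7, 101 and 51.8 on the same 3 treated arrays and 71.7 in control. By these 2 probe sets both arrays with ultrasound stood above both without, by 1.15-fold and 1.25-fold at the closest pair.

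The other two KLF3 probe sets did not repeat this. Probe set 222913_at read 74.8 in the combination and 57.8 with ultrasound only, below 77.6 with Sonazoid only and 79.3 in control, and was the 1 member probe set whose arrays with ultrasound both lay below the others. Probe set 219657_s_at read 57.2, 52.9 and 50.5 on the treated arrays and 68.8 in control. The mean log2 difference with ultrasound ran from -0.25 to 0.64 over the 4 probe sets.

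KLF9, which is induced by glucocorticoid and thyroid hormone, was read by 5 probe sets that did not go one way. Its brightest probe set, 203543_s_at, read 102 in the combination and 103 with ultrasound only, against 75.6 with Sonazoid only and 86.2 in control, 1.19-fold above control for either. Probe set 203542_s_at read 83.5, 88.9 and 77.3 on the treated arrays and 87.8 in control. Probe set 203541_s_at was dim and read 24.1 in the combination, 33.7 with ultrasound only, 29.4 with Sonazoid only and 34.9 in control, a log2 difference of -0.54 between the combination and control. Over the 4 KLF9 probe sets above the floor on all arrays the mean log2 difference with ultrasound ran from -0.17 to 0.34. The fifth, 230636_s_at, barely passed the floor, at 29.1 in the combination and 24.4 with ultrasound only.

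KLF13, known as an activator of the chemokine gene CCL5 in T cells, was the steadiest of the members with bright probe sets. Probe set 225390_s_at read 1271 in the combination, 1528 with ultrasound only, 1421 with Sonazoid only and 1395 in control. Probe set 219878_s_at read 288, 340.3 and 331 on the treated arrays and 282 in control. The arrays with and without ultrasound overlapped for both, and the mean log2 difference with ultrasound was -0.01 and 0.03. The other two probe sets were above the floor on 1 array each, at 24.0 with Sonazoid only (1564463_at) and at 28.9 in control (230094_at).

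Over the whole set, 24 of the 25 probe sets were above the floor on at least 1 array, and 16 on all 4. In the combination 7 probe sets (4 of KLF6, 2 of KLF4 and 1 of KLF2) were at least 2-fold above control and 0 were 2-fold below, of 23 measured. Among all probe sets with 1 symbol the shares past 2-fold were 1.42% above control and 0.984% below. With ultrasound only the counts were again 7 and 0 of 23, where 1.59% of all such probe sets were higher and 1.03% lower. Against Sonazoid only, the combination had 8 of 22 at least 2-fold higher, the eighth being that of KLF10, and 0 lower. There 1.54% of all were higher and 0.815% lower. Of the 7 probe sets, 220266_s_at of KLF4 and 219371_s_at of KLF2 were under the floor in control, and a probe set that passes the floor through the arrays where it is high had to differ, so these shares are not read as a result.

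In 13 member probe sets both arrays with ultrasound were above both without, as in 17.3% of all probe sets with 1 symbol, and in 7 of them by 2-fold or more, as in 0.298% of all. Both arrays lay below both others in 1, where 18.5% of all did. Since the family was chosen for this contrast, nothing is read from the comparison of these shares. By the brightest probe set of each gene, the median log2 difference of the 8 members was 0.78 in the combination, against -0.0030 over all genes measured. It was 0.56 with ultrasound only, against 0.02 over all genes.

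**Figure D3:**
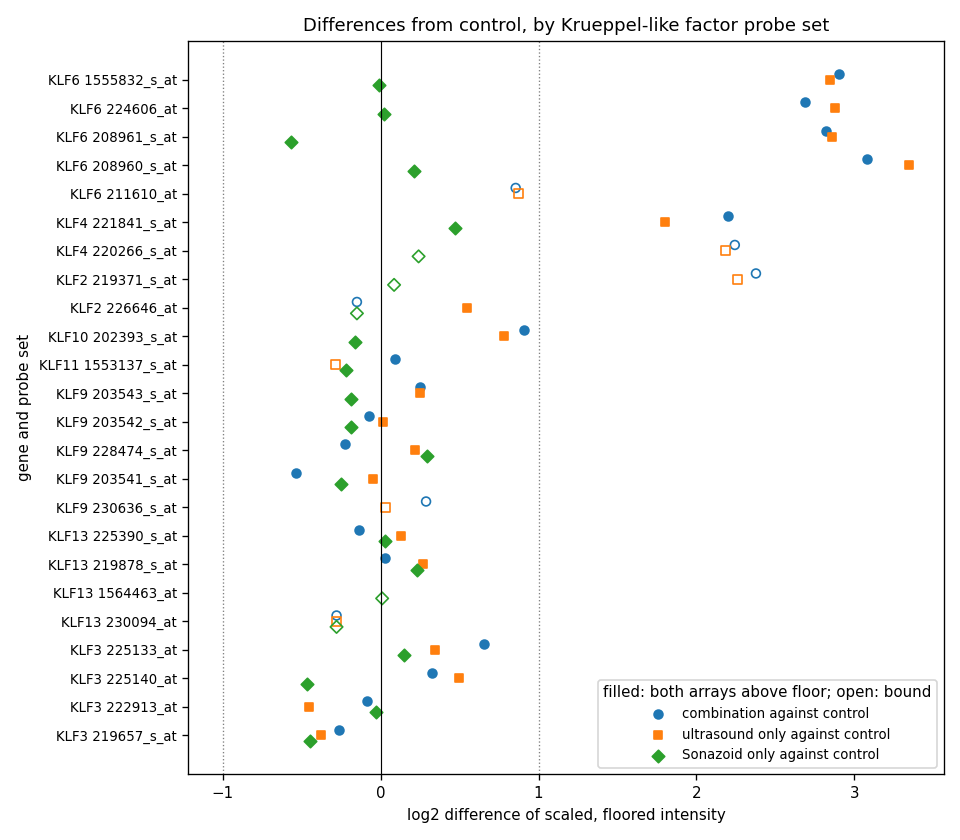
Log2 difference of scaled, floored intensity (x axis) from control for the 24 probe sets with a measured difference (y axis, grouped by gene), for the combination (circles), ultrasound only (squares) and Sonazoid only (diamonds); open symbols are bounds with 1 array at the floor and dotted lines mark 2-fold. The probe sets of KLF6, KLF4 and 1 of KLF2 lie beyond the line with ultrasound, apart from the dim KLF6 one, and no member does with Sonazoid only.

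Sonazoid without ultrasound is a contrast on which the choice of the family did not rest. Of the 22 probe sets measured in it, 0 were at least 2-fold higher or lower, where 0.724% of all probe sets with 1 symbol were higher and 0.839% lower, and 10 of the 22 lay above 0. The median over the 8 members was 0.01, and that over all genes measured was -0.00034. The member differences farthest from 0 were 208961_s_at of KLF6, at -0.57, and 221841_s_at of KLF4, at 0.47. Over the 16011 probe sets of the array with a mean signal of 100 or more, the absolute difference in this contrast had a median of 0.12 and a 95th percentile of 0.44. The other KLF6 probe sets differed by -0.01, 0.02 and 0.21, so the lower value of 208961_s_at was not shared within the gene. For KLF4 the second probe set gave at least 0.24 in the same direction.

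The combination against ultrasound only gives the difference with Sonazoid in insonated cells. Again 0 of 22 measured member probe sets were 2-fold higher or lower, where 1.03% of all were higher and 1.28% lower, and 10 of 22 lay above 0. The bright probe sets lay between -0.27 (208960_s_at of KLF6) and 0.40 (221841_s_at of KLF4), and the 95th percentile of the absolute difference over the 16011 brighter probe sets of the array was 0.55. The value farthest from 0 was that of the dim 226646_at of KLF2, where the combination was at least 0.70 (log2) lower. The median over the 8 members was 0.12, and over all genes it was -0.01.

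The difference with ultrasound can be read once in the presence of Sonazoid and once in its absence. For 1555832_s_at of KLF6 it was 2.91 with Sonazoid and 2.84 without, and for 221841_s_at of KLF4 it was 1.73 with and 1.80 without. For 219371_s_at of KLF2 it was 2.29 with and at least 2.26 without. For 202393_s_at of KLF10 it was 1.07 with and 0.78 without, a departure from additivity of 0.29. These 2 contrasts share no array.

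The departure from additivity was 0.54 for 208961_s_at and -0.48 for 208960_s_at, opposite signs within KLF6. Its median absolute size was 0.16 over the 16011 brighter probe sets of the array, with a 95th percentile of 0.66, and every member probe set with a mean signal of 100 or more lay inside that. The largest among members above the floor on all arrays was -0.74, for the dim 228474_s_at of KLF9, which read 32.6 in the combination, 44.4 with ultrasound only, 46.9 with Sonazoid only and 38.2 in control. No interaction was tested, since 1 array a group leaves no error to test it against.

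**Figure D4:**
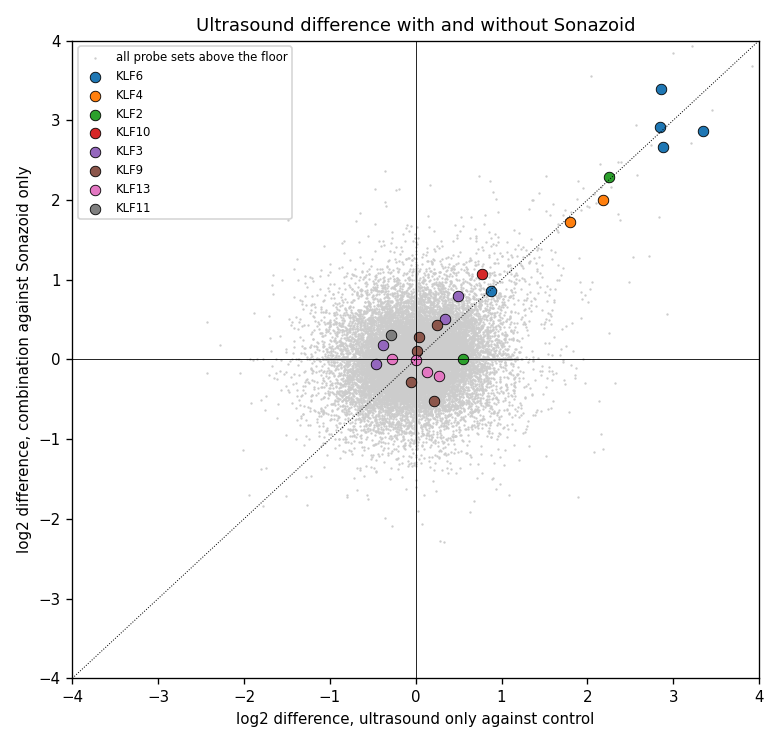
Log2 difference with ultrasound in the presence of Sonazoid (combination against Sonazoid only, y axis) and in its absence (ultrasound only against control, x axis) for all probe sets above the floor on at least 1 array (grey) and the 24 such probe sets of Krueppel-like factors (coloured); the dotted line marks equal differences. The probe sets of KLF6 and KLF4 and one of KLF2 lie near the line at the upper right, apart from the dim KLF6 one, which lies with KLF10 between them and the centre, and KLF3, KLF9, KLF11 and KLF13 lie in the cloud.

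The rest of the family was mostly dim. Of the 9 other KLF genes, 6 were above the floor on at least 1 array, and 0 of those 6 were 2-fold from control in the combination or with ultrasound only, where 1.39% of all genes lay 2-fold or more above control and 0.872% below in the combination, and 1.65% above and 0.721% below with ultrasound only. The median log2 difference in the combination was -0.02. KLF5, an epithelial and vascular growth factor-responsive member, read 50.0 in the combination, 38.2 with ultrasound only, 52.3 with Sonazoid only and 25.2 in control. It stood 1.98-fold above control in the combination, 2.24-fold with the values as deposited, so the count of 0 depends on the scaling. It was the 1 gene of this list at 2-fold with Sonazoid only, where 0.652% of all genes were higher and 0.715% lower, and it was dim. KLF7 read 49.7 in the combination, 61.1 with ultrasound only, 77.6 with Sonazoid only and 59.0 in control, and KLF12, a repressor, passed the floor at 24.0 in the combination and 32.6 with ultrasound only.

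The SP factors bind the same GC boxes. Of the 8 with a probe set, 6 were above the floor on at least 1 array. By the brightest probe set 0 were 2-fold from control in either contrast, a count near the shares over all genes given above. The medians were -0.21 in the combination and -0.23 with ultrasound only. SP1 read 897 in the combination, 920.3 with ultrasound only, 1046 with Sonazoid only and 1112 in control. SP2 (394 in the combination, 453 with ultrasound only, 417 with Sonazoid only, 516 in control) and SP4 (272, 332, 340 and 314 in that order) likewise stayed within 2-fold.

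Co-factors through which Krueppel-like factors act include the CtBP and SIN3 co-repressors, the histone deacetylases and the acetyltransferases p300 and CBP. All 11 listed were measured. By the brightest probe set 0 were at 2-fold in the combination or with ultrasound only. That count is near the shares over all genes given above. The medians were -0.09 and -0.03. In the combination against control, 1 other probe set of CREBBP, the gene of CBP, lay about 2-fold lower, and another gave 0.02 (log2). The other probe set of EP300, the gene of p300, gave -0.46. The count of 0 may therefore depend on the probe set read. KAT2B, the acetyltransferase PCAF, read 233 in the combination and 209 with ultrasound only, against 199.5 with Sonazoid only and 147 in control. HDAC2 read 3367 and 2894 on the arrays with ultrasound, against 3828 with Sonazoid only and 3773 in control. CTBP1 read 1646 and 1745 with ultrasound, against 2062 with Sonazoid only and 1803 in control. By these probe sets the arrays with ultrasound lay above both others for KAT2B and below both for HDAC2 and CTBP1, in each case by less than 2-fold. In the combination against control the brightest probe sets of HDAC2 and CTBP1 gave -0.16 and -0.13 (log2). The other HDAC2 probe set gave 0.22 and the other CTBP1 ones 0.32, 0.11 and 0.29, so the lower values were not shared within either gene.

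The kinases and factors of the ERK5-MEF2 route, which is known to induce KLF2 and KLF4 in endothelium under flow, numbered 5, all measured. By the brightest probe set 0 were at 2-fold in either contrast, a count near the shares over all genes given above. The medians were -0.03 in the combination and -0.07 with ultrasound only. In the combination against control, the other MEF2C probe sets gave log2 differences of 1.15, past 2-fold, and 0.01. Those of MEF2D gave 0.56 and -0.48. MAPK7, which encodes ERK5, read 72.7 in the combination, 99.7 with ultrasound only, 78.6 with Sonazoid only and 72.9 in control. MEF2D read 130.0 in the combination, 95.3 with ultrasound only, 113 with Sonazoid only and 132.5 in control, and MAP2K5, which encodes the kinase of ERK5, read 207, 263, 226 and 277. No common order of arrays was seen among them, and transcript levels do not report kinase activity.

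Among 5 genes for ubiquitin ligase components that turn over Krueppel-like factors, 0 were at 2-fold in either contrast by the brightest probe set. That count is near the shares over all genes given above. The medians were 0.24 in the combination and 0.13 with ultrasound only. SMURF1, a ligase described for KLF2, read 130 in the combination and 173 with ultrasound only, against 112 with Sonazoid only and 102 in control. FBXW7 read 186 and 167 with ultrasound, against 145 with Sonazoid only and 158 in control. WWP1 read 193 and 185, against 192 and 159. Other probe sets of SMURF1 gave log2 differences of -0.18, 0.30, -0.27 and 1.52 between the combination and control, the last past 2-fold. Those of FBXW7 gave 0.20, 0.17 and 0.98, so the count of 0 depends on the probe set read.

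Genes described as targets of the family numbered 11 with a probe set, of which 9 were measured in the combination. By the brightest probe set 0 were at 2-fold in the combination or with ultrasound only, a count near the shares over all genes given above. The medians were 0.08 and 0.23. In the combination against control, other probe sets gave log2 differences of -0.58 for PLAU, whose brightest gave 0.21, -0.71 for ENG and -0.49 for TGFB1. Those of CCL5 gave -0.15 and 0.20, and those of THBD 0.71 and 0.81. In 6 of the 9 both arrays with ultrasound were above both without, as in 18.8% of all genes. Of the 6, CCND1 was above the floor only on the arrays with ultrasound, so it had to differ. For CCL5 and PLAU the closest pair differed little. CCL5 read 2257 in the combination against 2210.4 in control, and PLAU 321 with ultrasound only against 303 with Sonazoid only. The list was chosen with earlier results of these data known, so nothing is read from these shares. CDKN1A, the cell cycle inhibitor p21 and a described target of KLF4 and KLF6, read 132.9 in the combination and 148 with ultrasound only, against 33.0 with Sonazoid only and 77.0 in control, so Sonazoid only was 2.33-fold below control. THBD, which encodes the anticoagulant receptor thrombomodulin and is a described target of KLF2 and KLF4, read 257 and 291 with ultrasound, against 155 with Sonazoid only and 151 in control.

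SMAD7, the inhibitory SMAD that KLF10 is described as repressing, read 179 in the combination and 139 with ultrasound only, against 100.1 with Sonazoid only and 107 in control. CCL5, the described target of KLF13, read 2257 and 2557 with ultrasound, against 2081 with Sonazoid only and 2210.4 in control. CD14, a described target of KLF4 in monocytes, was under the floor on all 4 arrays. The control genes ACTB and GAPDH differed from control by -0.07 and -0.11 (log2) in the combination, where the values as deposited gave 0.10 and 0.07, and by 0.14 and 0.10 with ultrasound only.

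**Figure D5:**
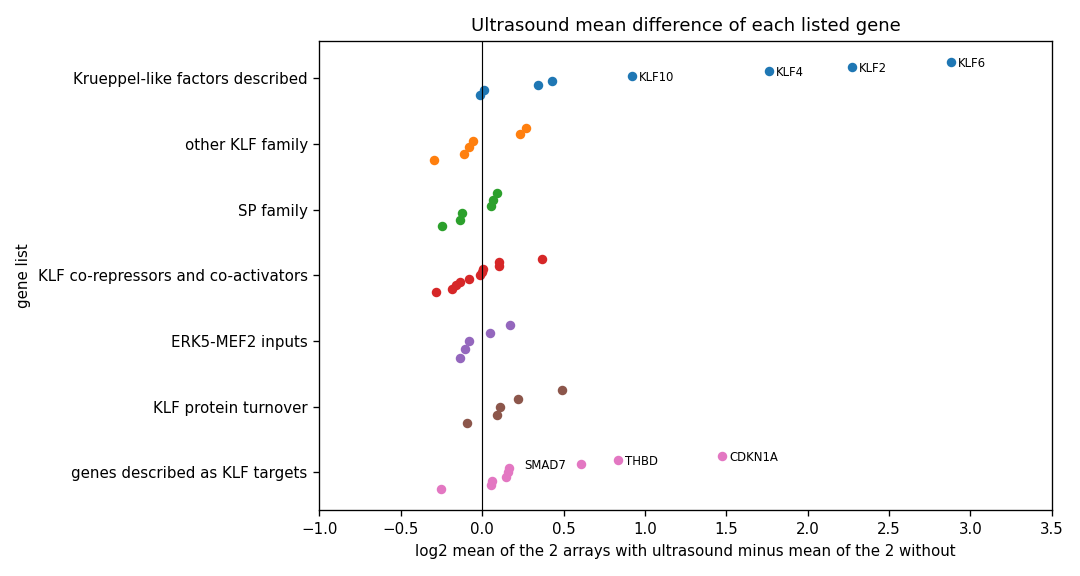
Log2 mean of the 2 arrays with ultrasound minus the mean of the 2 arrays without it (x axis) for each listed gene above the floor on at least 1 array, by its brightest probe set; rows are gene lists and points are genes, named where the difference is at least 0.5. KLF6, KLF2, KLF4 and KLF10 stand to the right, with CDKN1A, THBD and SMAD7 among the described targets.

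The genes whose pattern over the 4 arrays was most like that of KLF6 were found by Euclidean distance between log2 values centred on each gene's mean, among 10627 genes above the floor on all arrays. They were TSC22D3, a glucocorticoid-induced leucine zipper protein (distance 0.20), RGS2, a regulator of G protein signals (0.26), PHLDA1 (0.47), the AP-1 subunit FOS (0.65) and FCAR, the myeloid IgA receptor (0.73). RGS2 read 557 in the combination and 543 with ultrasound only, against 72.3 with Sonazoid only and 91.7 in control. PHLDA1 read 356 and 368, against 71.8 and 61.7.

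For KLF4 the nearest were MATCAP2 (0.34), the membrane protein EMP1 (0.40), the interferon-induced IFIT1 (0.44), the mTORC1 inhibitor DDIT4 (0.45) and HMOX1, which degrades heme (0.50). MATCAP2 read 94.9 in the combination and 92.6 with ultrasound only, against 39.3 with Sonazoid only and 24.7 in control. Like KLF4 it was above control with Sonazoid only, by 1.59-fold, with a control value just above the floor. The log2 difference with Sonazoid only was 0.12 for EMP1, 0.52 for IFIT1, 0.03 for DDIT4 and -0.19 for HMOX1. DDIT4 read 1666 and 1700.2 with ultrasound, against 549.7 with Sonazoid only and 538 in control. With 4 arrays such a likeness is a description of these arrays.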

How the data were processed

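RNA of U937 cells was measured on 4 Affymetrix Human Genome U133 Plus 2.0 arrays, 1 per group, after one-cycle amplification from the 3′ end and biotin labelling, per the labels' protocols. Each array was deposited as 1 linear intensity per probe set, from 0.0486 to 21728. The authors' summarisation and scaling of the probes remain not given in the sources used here, as do detection calls.

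Groups came from the agent label. The 2% trimmed means of the deposited arrays differed 1.16-fold, above the 1.1-fold at which scaling was applied, so each array was multiplied by 1 factor. The median over all arrays and probe sets after scaling, 23.8, was the floor, to which lower values were raised before log2 was taken. Of the 54675 probe sets, 62 are array controls and were left out of counts; 41091 others had 1 symbol in the platform annotation, 1801 had several (none of them a member) and were not named, and symbols were updated through Entrez identifiers. A gene outside the 8 members was read by its brightest probe set. A probe set counted as higher or lower at 2-fold, and the shares over all probe sets (those with 1 symbol) or genes are of those above the floor on at least 1 array compared. The spread over 16011 brighter probe sets used all that are not array controls. Names ending in _s_at or _x_at mark probes that can match several transcripts; 9 of the 25 member probe sets have neither ending. Sequences are from RefSeq.

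All 8 members were named with every probe set; of each list of family members, co-factors, inputs, turnover genes and targets, those at 2-fold in the combination or with ultrasound only were named, and otherwise the 3 farthest from 0 in the mean ultrasound difference, with the 5 nearest genes to KLF6 and to KLF4 and 2 control genes. Others named, such as CCL5, CD14 and the cell type markers, were chosen after their values were seen. The members and lists were chosen with earlier results of these data known. With 1 array per group no test was run, and the number of arrays limits the precision. Scaling and counting were tested on simulated data. Alternatives were the values as deposited, quantile normalisation, a floor of 100, no floor with a pseudocount of 16, a 1.5-fold threshold, and other choices of probe set per gene. Python 3.11.15, numpy 2.4.6, pandas 2.3.3 and matplotlib 3.10.9 were used.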

Additional observations from a re-analysis of the deposited data

How the results depend on the processing

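Counts of Krueppel-like factor probe sets at 2-fold kept within 1.5 times their value under the values as deposited, quantile normalisation and a floor of 100, where 5 probe sets stayed at 2-fold above control in the combination and 5 with ultrasound only. With no floor and a pseudocount of 16, 1 probe set was 2-fold lower with ultrasound only than in control and 1 with Sonazoid only than in control (both 230094_at of KLF13), and 1 in the combination than with ultrasound only (226646_at of KLF2). All 3 counts were 0 with the floor, and all 3 rest on signals near or under it. At a 1.5-fold threshold 1 probe set, again 226646_at, was lower in the combination than with ultrasound only. Without the floor, 5 of the 10 genes nearest to KLF6 and KLF4 were shared with those given above, against 9 under quantile normalisation; the cause was not tested. With the brightest probe set whose name marks it as gene-specific, the log2 difference of KLF2 between the combination and control was a bound of -0.15 (at least 0.15 lower) in place of at least 2.38, since that choice leaves 226646_at alone; KLF4, KLF9 and KLF10 have no such probe set and gave no value. With the floor of 100 the second KLF4 probe set and 219371_s_at of KLF2 were at least 0.17 and at least 0.31 (log2) above control in the combination. The values as deposited moved the median of all genes in the combination to 0.16; KLF10 then stood at 1.08 and KLF5 at 1.16, both past 2-fold, KLF13 at 0.04, and the medians of the other KLF genes, the co-factors and the ERK5-MEF2 list at 0.12, 0.08 and 0.15, where these last 4 values were below 0 after scaling and remained below the median of all genes. In all, 1001 recomputed values and counts stayed within 1.5-fold, 36 moved by more, and 1 difference of 2-fold or more changed sign. Sign changes of differences under 2-fold, such as that of KLF13 just given, were not counted as changes of sign. No paired analysis was possible because each group is 1 array. Signals near the floor carry bounds only, which limits KLF2, KLF11 and the dim probe sets of KLF6, KLF9 and KLF13.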

Other observations

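Transcripts next to members of the family have probe sets of their own, which entered no count above. KLF3-AS1, antisense to KLF3, was read by 1570414_x_at at 21.0 in the combination, 32.8 with ultrasound only, 37.6 with Sonazoid only and 3.78 in control, and by 219871_at under the floor on all 4 arrays. KLF9-DT, a divergent transcript at KLF9, was read by 216489_at at 26.8 in the combination, 21.8 with ultrasound only, 17.2 with Sonazoid only and 11.8 in control, so it passed the floor in the combination alone.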
